A study of Homo sapiens and Mus musculus with 20 samples.

Results

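Accessible chromatin at the 3′ ends of protein-coding genes was examined in SW480 cells, a human colorectal adenocarcinoma line, by ATAC-seq, which reads accessible DNA through the insertions of a transposase. Peak intervals of 12 libraries were merged where they overlapped. A merged region was kept if 2 or more libraries had a peak in it, lay within 1 kb of the annotated end of a protein-coding gene on the strand of that gene, and lay more than 3 kb from every protein-coding transcript start. This gave 3563 gene-end regions of 167303 regions that 2 or more libraries supported and of 252173 merged regions in all. They stood at the ends of 3041 of 20033 protein-coding genes, and a region near several ends was assigned to the nearest one.

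Cells had been exposed overnight, for 12 to 16 h, to sodium propionate (NaPr, 10 mM) or to sodium butyrate (NaBu, 1 mM), which are salts of short-chain fatty acids that gut bacteria make from dietary fibre. The groups were SW480 with 10 mM NaPr (3 libraries) against 0 mM NaPr (3 libraries), and SW480 with 1 mM NaBu (3) against 0 mM NaBu (3). The study asked how the compounds alter accessibility in colorectal cancer cells. All 12 libraries came from the same line in medium with serum, from 50000 viable cells each, without a genetic change in any group, and the 2 experiments carried different dates and had separate untreated libraries. The labels call the libraries experimental replicates and do not say that they were separate cultures, so p-values measure the spread between libraries, which may be technical. Of 8 intestinal epithelial markers, 7 had a promoter peak in all 12 libraries and CDH17 had one in 6. Of the markers of other cell types, PTPRC, CD3E, CD79A and COL3A1 had none, whereas COL1A1 and COL1A2 had a promoter peak in all 12. The lists held 108442 to 144398 peak intervals per library, and the mean pileup of tags over the genome, recovered from the lists as a measure of depth, ran from 0.936 to 3.03 tags. In bulk material a region open in fewer cells cannot be told apart from a region less open in each cell.

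At the end of a gene, the cleavage and polyadenylation machinery reads a hexamer on the nascent RNA, most often AATAAA in the letters of the DNA, cuts the transcript a short way beyond it and adds the poly(A) tail. RNA polymerase II goes on past the cut before it is released, so that chromatin beyond an annotated end can still be transcribed. Runs of A or T are known to disfavour nucleosomes. Enhancers and binding sites of factors such as CTCF also occur beside gene ends.

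The reference sequence (hg38) of the 200 bp around the highest summit is given for 3 regions that the results turn on. The region at RTN2 had no peak in any untreated library and a peak in every treated library of both experiments, the region at TP53INP2 gained a peak after NaPr, and the region at ZNF488 had one of the largest losses after NaBu. Each is written 5′ to 3′ on the strand of its gene. Capitals mark the AP-1 site TGACTCA at TP53INP2.
RTN2, chr19:45484454-45484653, minus strand: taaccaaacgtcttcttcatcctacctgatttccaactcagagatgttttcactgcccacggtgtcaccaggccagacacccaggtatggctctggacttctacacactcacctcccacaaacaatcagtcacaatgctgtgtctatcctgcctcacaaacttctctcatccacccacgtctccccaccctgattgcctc
TP53INP2, chr20:34713542-34713741, plus strand: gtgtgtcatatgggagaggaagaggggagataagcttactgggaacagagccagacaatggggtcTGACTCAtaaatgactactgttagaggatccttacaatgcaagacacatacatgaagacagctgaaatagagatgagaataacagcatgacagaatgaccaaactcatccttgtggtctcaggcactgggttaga
ZNF488, chr10:47364461-47364660, minus strand: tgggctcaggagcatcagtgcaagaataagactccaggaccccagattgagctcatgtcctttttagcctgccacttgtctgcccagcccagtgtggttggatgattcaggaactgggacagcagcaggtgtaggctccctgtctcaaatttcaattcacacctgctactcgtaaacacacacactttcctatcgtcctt

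AP-1 sites are bound by FOS and JUN family factors, and the site of 30 bp is shown at 5 further regions whose values are given with the gene lists and the largest changes. Capitals mark TGACTCA or its reverse complement TGAGTCA.
ENSG00000284989, chr1:43929746-43929775, plus strand: ttggacttcagTGACTCAcactgcctgccc
CTNNB1, chr3:41259611-41259640, plus strand: gctcacaaataTGACTCAcagcatcatcct
KLF3, chr4:38702597-38702626, plus strand: gattaccggcgTGAGTCActgtgcccaacc
TJP1, chr15:29698471-29698500, minus strand: agcagatggagaTGACTCAggtgaggagac
MKI67, chr10:128095541-128095570, minus strand: tggatacctgctTGACTCAtctttccagtg

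Gene-end regions were more frequent beyond the annotated end than inside the gene, and they thinned out over the last stretch before the end. Each end that lay far enough from starts was scanned in bins of 250 bp, and regions were counted by the position of their highest summit. From 22.4 regions per 1000 ends in the bin 500 to 250 bp before the end, the density fell to 18.3 in the last 250 bp and stood at 22.6 in the first 250 bp beyond it. It then reached 27.6 per 1000 ends at 1000 to 1250 bp beyond the end. The last 250 bp of genes thus held fewer summits than the bins on either side, a description of the pooled regions without a test.

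For each library, the merged regions in which it had a peak were counted at their pooled summit positions, per 1000 ends and per kb. The first 1 kb beyond the end held 60.6 ± 2.28 such regions (SD, n = 12) and the last 1 kb inside 49.1 ± 1.64. The window beyond the end was the denser one in 12 of 12 libraries (difference 11.5 ± 1.49, exact sign-flip permutation test over libraries, two-sided, p = 0.000488). Inside the gene, the last 1 kb was also denser than the stretch from 3 to 5 kb before the end, at 42.3 ± 1.99, again in 12 of 12 libraries (p = 0.000488, exact test). The first 1 kb beyond the end exceeded the stretch from 3 to 5 kb, at 58.2 ± 3.38, by only 2.42 ± 1.9 in 11 of 12 libraries (exact p = 0.00293). The libraries come from 1 line and share the annotation, the merged regions and their summit positions. This test therefore covers the spread between libraries in which regions had a peak, and not the spread between genes.

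Among summit windows, the poly(A) signal was concentrated next to the end. The string AATAAA was sought on the gene strand in the 200 bp around each summit, and on the opposite strand for comparison. It was present in 30% of windows with a summit in the last 250 bp of the gene and in 15.6% of those in the first 250 bp beyond, whereas the other strand held it in 7.50% and 6.92%. At 500 to 250 bp before the end, the shares were 3.53% on the gene strand and 6.18% on the other. In every other bin from 5 kb inside to 5 kb beyond the end, the strands differed by less than in either of the 2 bins next to it. Ends without a region were not scanned, so these shares do not tell accessible ends from other ends.

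**Figure D1:**
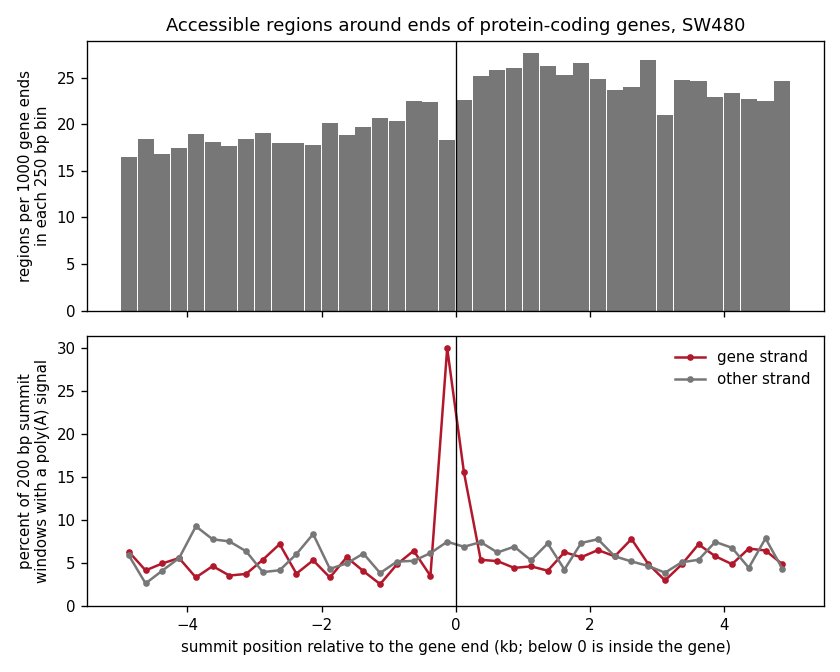
Regions supported by 2 or more of 12 SW480 libraries around ends of protein-coding genes. The upper bars give regions per 1000 eligible ends in each 250 bp bin by summit position (kb, below 0 inside the gene), with 18.3 in the last bin before the end and 22.6 just beyond. The lower lines give the percent of 200 bp summit windows that hold a poly(A) signal on the gene strand (30% in the last bin) and on the other strand (7.50%).

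The gene-end regions had a median width of 625 bp and a median GC content of 54.5%. Of the 3563, 645 overlapped the annotated end itself, 1986 had their summit beyond the end and 1577 inside the gene. By the place of the summit, 1424 were intergenic, 1098 lay in a 3′ UTR, 636 in an intron, 219 in a noncoding gene, 184 in a coding exon and 2 in a 5′ UTR. The introns and exons are those of the same gene, of another transcript or of a neighbour. In all, 252 regions lay near the ends of at least 2 genes, and 207 of these were near ends on both strands. Most genes (2580) had 1 such region, 412 had 2 and 49 had 3 or more, up to 5.

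A peak was present in all 12 libraries at 1200 gene-end regions and in 2 or 3 libraries at 886. Regions that overlapped the end were wider, at a median of 983 bp, and 52.6% of them had a peak in all 12 libraries. The strength of a peak was expressed as a percentile rank, the percent of regions in that library whose highest −log10 p was lower, with regions without a peak at 0. On this scale the median gene-end region stood at 49.0 to 52.7 over the 12 libraries, against 43.0 to 45.4 for other regions inside genes and away from starts. The gene-end median was higher in 12 of 12 libraries, by 6.57 ± 1.11 points (SD, n = 12, exact sign-flip permutation test, p = 0.000488). Ranks were highest where regions overlapped the end, with a median untreated rank of 66.5 (NaPr experiment) and 65.8 (NaBu) among tested regions. With the nearest edge over 500 bp away, successive bands had 41.3, 37.9 and 42.0 (NaPr) and 39.7, 44.4 and 48.3 (NaBu). Nearer bands had 50.3 and 46.9 (NaPr) and 47.3 and 47.3 (NaBu). Wide regions meet a rule on the nearest edge more easily, and the comparison was not matched for width. The regions at the edge of the distance rule were alike in width, with a median of 586 bp in the last 100 bp inside the limit and 542 bp in the first 100 bp outside it.

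One of the strongest gene-end regions lay over the end of EGR1, a zinc finger factor induced within minutes by growth signals, and spanned 2739 bp (chr5:138469232-138471970). Its ranks were 98.5, 98.6 and 98.2 in the untreated and 99.9, 99.2 and 99.9 in the NaPr-treated libraries. They were 95.1, 97.5 and 98.6 untreated and 98.5, 99.0 and 98.7 treated in the NaBu experiment. EGR1 was among the top regions in all 12 libraries and did not pass after either compound on the scale of ranks (limma adjusted p = 0.166 and 0.146), which leaves little room above these values. As recovered tags over the genome-wide background, EGR1 was called higher after both, by 0.81 and 0.24 (log2).

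NaPr at 10 mM changed gene-end regions about as often as regions elsewhere. Percentile ranks were tested with limma on all regions that had a peak in 2 or more of the 6 libraries of an experiment, with Benjamini-Hochberg adjustment over all of them and a call below 0.05. Changes are in percentile points, treated minus untreated. Of the 3563 gene-end regions, 2823 were tested after NaPr, and 126 were called higher and 121 lower. Over all 124067 regions tested, 4.57% were higher, 3.99% lower and 8.56% called in either direction. The gene-end shares were 4.46% and 4.29%, or 8.75% in all, close to the background. The median change was -1.16 points at gene ends and 0.02 over all regions. At an unadjusted p under 0.05 there were 752 gene-end regions, 26.6%, where 25.4% of all regions passed.

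After 1 mM NaBu the calls were more numerous but again near the level of all regions. Of 2621 gene-end regions tested, 518 were higher and 406 lower. The background was 19.8% higher, 17.2% lower and 37.0% in either direction over 123730 regions tested. Gene ends had 19.8% higher, 15.5% lower and 35.3% in all. At an unadjusted p under 0.05 there were 1155 gene-end regions, 44.1%, where 46.4% of all regions passed. The median change was 0.95 points at gene ends and 0.71 over all regions. The experiments differ in compound, dose and date, and their counts are given side by side without a comparison.

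Regions near transcript starts were called lower more often than higher. After NaBu, 11.9% of tested regions near starts were higher and 25.8% lower, and after NaPr 2.98% were higher and 7.85% lower. Of the gene-end regions called after NaBu, 56.1% were higher, compared with 31.6% near starts, 59.0% in gene bodies and 61.9% outside genes. After NaPr these shares were 51.0%, 27.5%, 60.3% and 65.9%. The gene-end share lay between that of regions near starts and those of the other distal regions in both experiments. Ranked by fold enrichment, the gene-end split after NaBu was 295 higher and 329 lower (11.3% and 12.6%, all regions 13.3% and 13.8%). The regions of a class share libraries, and these shares were not tested against each other.

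**Figure D2:**
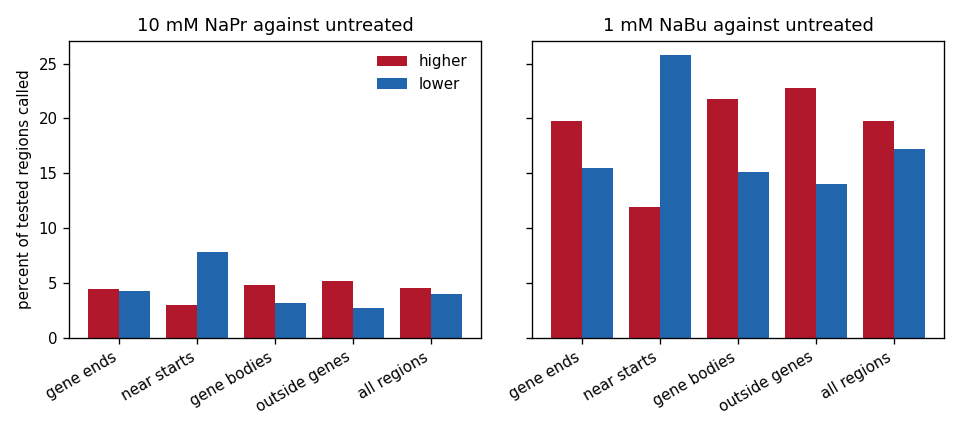
Percent of tested regions called higher (red) or lower (blue) by limma (adjusted p under 0.05), by class of region, in the NaPr (left) and NaBu (right) experiments with 3 treated and 3 untreated libraries each. The gene-end bars (4.46% and 4.29% after NaPr, 19.8% and 15.5% after NaBu) are near those of all regions.

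The NaPr calls depended on every treated library. Without any 1 of the 3 treated libraries limma called 0 gene-end regions, with 666, 693 and 694 at an unadjusted p under 0.05, and 0 of all regions. Without 1 of the 3 untreated libraries, 64, 22 or 17 were called (without untreated replicate 1, 2 and 3). The shares higher were 1.42%, 0.567% and 0.461%, beside 1.56%, 0.527% and 0.39% of all regions. The shares lower were 0.85%, 0.213% and 0.142%, beside 0.722%, 0.15% and 0.0725% of all regions. The direction also depended on the scale. The number of tags at the summit was recovered and divided by the library's genome-wide background, for 1542 gene-end regions with a peak in all 6 libraries. On this scale 177 were higher (11.5%) and 26 lower (1.69%), beside 13.5% and 1.1% of all regions. The median of all regions moved by 0.20 on the log2 scale. Divided by the median of the library, 167 were higher (10.8%) and 301 lower (19.5%), beside 12.2% and 19.9% of all regions. Ranked among regions with a peak only, the split after NaPr was 134 higher and 84 lower (4.75% and 2.98%, all regions 4.94% and 2.76%). After NaBu it was 623 higher and 310 lower (23.8% and 11.8%, all regions 22.8% and 13.6%). The NaBu counts without 1 library stayed between 753 and 827, from the 924 with all 6 libraries. In these fits 15.5% to 17.7% of gene-end regions were higher, beside 16.8% to 18.6% of all regions. The shares lower were 12.6% to 13.8%, beside 13.8% to 16.1% of all regions.

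The share of whole peak lists at gene ends changed by -0.121 percentage points after NaPr and by -0.0497 after NaBu. The share of intervals that overlapped a gene-end region was 2.08% ± 0.106 (SD, n = 3) after NaPr and 2.20% ± 0.115 (n = 3) in its untreated libraries (exact permutation test, two-sided, p = 0.3). After NaBu the shares were 2.1% ± 0.0182 treated and 2.15% ± 0.0215 untreated, ranges that did not overlap (exact p = 0.1, the smallest that 3 against 3 libraries allow). Among the strongest 50000 intervals of each list the NaBu difference turned to 0.03 percentage points higher in treated libraries. The number of gene-end regions with a peak was 2228 ± 17.4 after NaPr and 2292 ± 69.5 untreated (exact p = 0.3), and 2269 ± 12.9 after NaBu and 2123 ± 57.8 untreated (exact p = 0.1, ranges apart). The NaBu lists held more intervals altogether, 127361 ± 1488 treated against 115737 ± 6514 untreated. The mean rank of tested gene-end regions was 47.1 ± 0.337 after NaPr and 49.0 ± 0.46 untreated. In the NaBu experiment it was 48.9 ± 0.116 treated and 47.6 ± 0.418 untreated. The ranges were apart in both experiments (exact p = 0.1 each). Over the 10 such tests no adjusted p was below 0.2. With 3 against 3 libraries none could fall below 0.1, so these tests cannot show that a shift is absent.

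A peak appeared in all 3 treated and no untreated library at 73 gene-end regions after NaPr (2.59% of those tested, background 2.95%) and at 131 after NaBu (5.00%, background 6.41%). The reverse pattern held at 64 regions after NaPr (2.27%, background 1.5%) and at 70 after NaBu (2.67%, background 3.72%). Another region within 1 kb with a peak in all 3 untreated libraries accompanied 23 of the 73 gained after NaPr (31.5%, where it was 19.0% for all gained regions) and 30 of the 131 gained after NaBu (22.9%, all gained regions 18.9%). Such a neighbour in the treated libraries accompanied 14 of the 64 regions lost after NaPr (21.9%, all lost regions 23.8%) and 23 of the 70 lost after NaBu (32.9%, all lost regions 46.4%). At these ends the gained or lost region stood beside a region with a peak in the group that lacked it. Whether that neighbour also had a peak in the other group was not counted. A region without a peak in 1 group passed the filter of the test only through the other group, so its p-value partly restates that selection. The untreated mean was 0 at 46 of the 126 regions called higher after NaPr and at 131 of the 518 after NaBu. The treated mean was 0 at 22 of the 121 called lower after NaPr and at 70 of the 406 after NaBu.

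SAT1 had the largest gain among gene-end regions after each compound. SAT1 encodes the spermidine/spermine acetyltransferase, the enzyme that starts polyamine breakdown. The region (chrX:23786389-23788014, 1626 bp, summit 948 bp beyond the end) had no peak in the 3 untreated libraries of the NaPr experiment, and ranked at 79.5, 74.1 and 84.5 in the treated ones. It had no peak either in the 3 untreated libraries of the NaBu experiment, and ranked at 70.4, 74.2 and 74.4 in the treated ones. All 6 treated libraries were thus in the upper part of the scale and all 6 untreated libraries at 0. The changes were 79.4 ± 8.50 points (SE, limma adjusted p = 0.00319) after NaPr and 73.0 ± 4.74 (adjusted p = 0.00029) after NaBu. The SAT1 region passed the filter in both experiments only through its treated libraries, so these p-values partly restate that selection. The summit was 4.63, 4.29 and 5.76 times the local background after NaPr and 3.56, 4.04 and 3.84 times after NaBu. That local background was itself 13.5 to 17.4 times the genome-wide mean in the NaPr-treated libraries and 19.6 to 21.9 times in the NaBu-treated ones.

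RTN2, PDLIM7 and NOS3 showed the same pattern. RTN2 encodes a reticulon of the endoplasmic reticulum, and its region (chr19:45484344-45484817, summit 740 bp beyond the end) had no peak in 6 untreated libraries. Its ranks were 68.2, 62.7 and 62.8 after NaPr and 71.1, 71.4 and 72.3 after NaBu. The gains were 64.6 ± 9.33 (adjusted p = 0.00724) and 71.6 ± 4.68 points (adjusted p = 0.00029). RTN2 also passed the filter only through treated libraries, so these p-values partly restate that selection. PDLIM7, a PDZ and LIM domain scaffold of the actin cytoskeleton, had a region 657 bp from its end at the nearest edge (chr5:177481636-177482737, summit 1635 bp beyond) without a peak in 6 untreated libraries. It ranked at 57.7, 58.1 and 62.1 after NaPr and at 46.8, 60.3 and 58.4 after NaBu. At NOS3, the endothelial nitric oxide synthase gene, the region (chr7:151015550-151015748) ranked at 50.6, 50.8 and 44.6 after NaPr and at 63.3, 64.8 and 69.3 after NaBu. Treated and untreated libraries did not overlap at any of the 3 genes, which a call nearly always brings with it. The groups were apart at 126 of the 126 regions called higher after NaPr and 516 of the 518 after NaBu. Among all tested gene-end regions they were apart at 837 of 2823 (NaPr) and 1190 of 2621 (NaBu). The NaPr calls at PDLIM7 and NOS3 were lost when ranked by fold enrichment. The unnamed gene ENSG00000284989 had a region in an intron near its end (chr1:43929611-43930026) with ranks of 72.6, 71.1 and 69.3 after NaPr and 55.2, 57.4 and 55.7 after NaBu, and none untreated.

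Other large gains after NaPr were not shared in the same form. TP53INP2, a regulator of autophagy, gained a peak with its summit 203 bp beyond its end (chr20:34713483-34713868) at ranks of 70.0, 74.0 and 63.9, with no peak in any library of the NaBu experiment. The TP53INP2 call was lost when ranked by fold enrichment. VARS2, the mitochondrial valyl-tRNA synthetase gene, went from no peak to 69.5, 66.0 and 59.7 after NaPr. The untreated libraries of the NaBu experiment already had a VARS2 peak (48.4, 41.2 and 48.4), and the treated ones ranked at 50.9, 66.8 and 62.9 (change 14.2 ± 5.36, adjusted p = 0.0733, called higher when ranked by fold enrichment or as tags over background). Untreated libraries of the 2 experiments thus stood apart at this region. XKR8, a phospholipid scramblase of apoptotic cells, had 70.9, 64.1 and 56.1 after NaPr and 23.8, 0 and 19.5 after NaBu, from 0 in untreated libraries. POM121L2 and the unnamed gene ENSG00000269403 gained 62.3 ± 9.57 and 61.0 ± 10.0 points after NaPr (adjusted p = 0.00879 and 0.0109) and 46.5 ± 9.64 and 25.6 ± 4.38 after NaBu (adjusted p = 0.00808 and 0.00387). In the NaPr experiment these regions passed the filter only through treated libraries, so their p-values there partly restate that selection.

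HDAC7 and SPHK2 lost peaks after both compounds. HDAC7 is a class IIa histone deacetylase gene, and its region had its summit 654 bp beyond the end and lay 47 bp from it at its nearest edge (chr12:47781881-47782675), in a 3′ UTR and also near the end of SLC48A1, a haem transporter gene. It ranked at 45.5, 59.0 and 48.3 untreated and had no peak in the 3 NaPr-treated libraries. Its ranks were 41.4, 43.2 and 39.3 untreated in the NaBu experiment, and it had no peak in the 3 treated libraries. The losses were -50.9 ± 10.1 (adjusted p = 0.0192) and -41.3 ± 5.31 points (adjusted p = 0.00133). HDAC7 passed the filter only through untreated libraries in each experiment, so these p-values partly restate that selection. SPHK2, a sphingosine kinase gene, ends 14 bp from a region (chr19:48630731-48631006) that is also near the end of DBP, a circadian transcription factor gene. That region ranked at 68.9, 68.5 and 77.1 untreated and at 24.7, 0 and 0 after NaPr, and at 26.4, 41.6 and 35.3 untreated and 0 in all 3 libraries after NaBu. Since 2 genes end beside each of these regions, the values belong to both. The NaPr calls at HDAC7 and SPHK2 were lost when ranked by fold enrichment.

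The other large losses after NaPr are set beside their NaBu values. KCNH2, the hERG potassium channel gene, had a region 733 bp from its end at the nearest edge (chr7:150945694-150946453, summit 1029 bp inside) at 62.2, 59.1 and 58.4 untreated and without a peak in the 3 NaPr-treated libraries. All 6 libraries of the NaBu experiment had a KCNH2 peak, at 43.7, 48.7 and 43.0 untreated and 44.1, 41.7 and 56.9 treated (change 2.47 ± 5.54, adjusted p = 0.753). TMEM258, a subunit of the oligosaccharyltransferase, fell by 51.2 ± 9.92 points after NaPr and by 42.5 ± 8.31 after NaBu (adjusted p = 0.0177 and 0.00645). FNBP1, an F-BAR protein of membrane bending, ranked at 62.7, 47.2 and 39.4 untreated and 0 after NaPr, and at 77.1, 82.0 and 78.0 untreated and 54.9, 44.7 and 50.5 after NaBu. RASL10B and RASA4, genes of the RAS family and of a RAS GTPase-activating protein, lost their peaks after NaPr (-56.1 ± 9.64 and -48.5 ± 10.7 points). The region at RASL10B, also near the end of GAS2L2, had -19.4 points after NaBu (adjusted p = 0.137), and the RASA4 region was not tested there. Ranked by fold enrichment, none of the NaPr losses in this paragraph passed.

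After NaBu, SYT3 and GNG13 were among the largest gains. At SYT3, a synaptotagmin gene, the region (chr19:50620204-50621220, summit 575 bp beyond the end) ranked at 0, 0 and 40.2 untreated and at 80.7, 81.4 and 81.2 treated. The same region ranked at 68.2, 68.5 and 67.8 untreated and 89.7, 85.4 and 85.3 treated in the NaPr experiment, a rise of 18.7 ± 2.09 points (adjusted p = 0.00354) beside 67.7 ± 10.5 after NaBu (adjusted p = 0.00268). Its summits held 82, 87 and 87 tags after NaBu, at 16.6, 17.4 and 16.8 times the local background. GNG13, a G protein gamma subunit gene, ranked at 36.1, 0 and 0 untreated and at 81.3, 80.9 and 80.7 after NaBu, with 54.6, 55.4 and 46.7 untreated and 52.9, 49.8 and 40.3 treated in the NaPr experiment. WIPI2, which acts in autophagosome formation, went from no peak to 61.4, 71.0 and 62.2 after NaBu (64.8 ± 5.28, adjusted p = 0.000385). For WIPI2 the NaBu filter was passed only through treated libraries, so this p-value partly restates that selection. In the NaPr experiment WIPI2 already had a peak untreated, at 34.0, 43.3 and 39.2, and ranked at 64.5, 66.1 and 54.7 treated. That change of 22.9 ± 6.98 did not pass (adjusted p = 0.0694), and was called higher as tags over background and in one fit over 12 libraries. CFDP1 rose by 64.4 ± 8.76 points (adjusted p = 0.00163) from 31.1, 0 and 0.

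A narrow region of 141 bp in the 3′ UTR of MYC, the transcription factor gene at the centre of WNT-driven growth, had no peak in untreated libraries and ranks of 65.1, 52.6 and 61.3 after NaBu (59.6 ± 5.56, adjusted p = 0.000497). It had no peak in any library of the NaPr experiment. This narrow region passed the filter only through its treated libraries, so its p-value partly restates that selection. A second, wider region that overlaps the end of MYC began 100 bp further on and had a peak in all 12 libraries. It ranked at 94.4, 93.0 and 92.9 untreated and 98.5, 98.3 and 98.3 after NaPr (4.90 ± 0.67, adjusted p = 0.00613), and at 95.7, 97.9 and 96.5 untreated and 99.9, 99.9 and 99.9 after NaBu (3.23 ± 0.58, adjusted p = 0.00469). The narrow region had 245, 214 and 249 tags at its summit after NaBu, only 2.56, 2.24 and 2.39 times its local background, which was 38.5 to 41.1 times the genome-wide mean.

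Among the losses after NaBu, C11orf54, CABYR, MZF1, FXYD4 and HRG had a peak in 3 of 3 untreated and 0 of 3 treated libraries. The C11orf54 region (chr11:93764944-93765724, summit 462 bp beyond the end) ranked at 71.2, 70.0 and 74.1 untreated, with 71, 48 and 65 tags at the summit and 14.4, 12.5 and 14.4 times the local background. The change was -71.8 ± 4.75 points (adjusted p = 0.000291), and the region had no peak in the NaPr experiment. The C11orf54 region passed the filter only through its untreated libraries, so this p-value partly restates that selection. CABYR, which encodes a calcium-binding protein of the sperm tail, ranked at 67.9, 62.1 and 67.6 untreated and likewise had no peak in the NaPr experiment. MZF1, a zinc finger factor gene, ranked at 59.5, 61.0 and 66.4 untreated. After NaPr it ranked at 65.2, 49.8 and 59.3 against 82.2, 79.6 and 85.1 untreated (-24.2 ± 4.13, adjusted p = 0.0119). FXYD4, a regulator of the sodium pump, and HRG, a plasma glycoprotein gene, fell by 60.7 ± 5.16 and 58.8 ± 5.08 points after NaBu.

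ZNF488 kept a weak peak in part of the treated libraries. The region (chr10:47364388-47365033, summit 935 bp beyond the end) ranked at 87.7, 84.0 and 86.3 untreated and at 24, 0 and 30.8 after NaBu (-67.7 ± 7.78, adjusted p = 0.000897). In the NaPr experiment it ranked at 48.5, 47.4 and 63.3 untreated and at 0, 0 and 35.9 treated, and the change of -41.1 ± 12.4 did not pass (adjusted p = 0.0678). ADRA1B, an adrenergic receptor gene, fell by 57.1 ± 6.98 points after NaBu (adjusted p = 0.00112) and by 14.0 ± 2.81 after NaPr (adjusted p = 0.0198). Only untreated libraries met the NaBu filter at ADRA1B, so its NaBu p-value partly restates that selection.

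**Figure D3:**
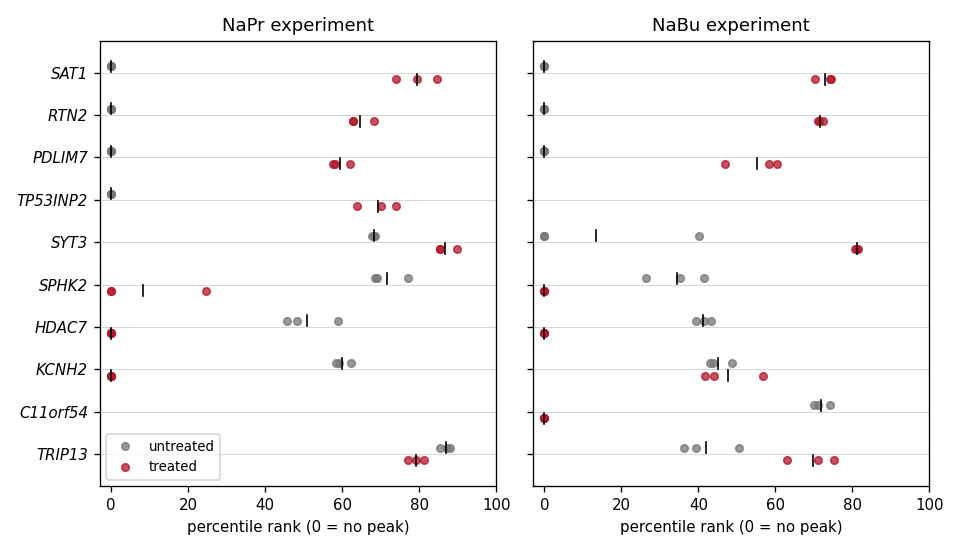
Percentile rank in each library (points) and group mean (black bar) of 10 gene-end regions in the NaPr (left) and NaBu (right) experiments, untreated in grey and treated in red, 3 libraries each, with 0 for no peak. TP53INP2 and C11orf54 were tested in 1 experiment only. SAT1, RTN2 and PDLIM7 were at 0 in the untreated and between 46.8 and 84.5 in the treated libraries.

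In total, 1945 gene-end regions were tested in both experiments, which share no library. The number higher after both was 66, which is 62.3% of the 106 higher after NaPr and 15.7% of the 421 higher after NaBu. The number lower after both was 59, or 54.6% of the 108 lower after NaPr and 21.1% of the 280 lower after NaBu. Over all 83651 regions tested in both, the same shares were 66.1% and 16.9% for higher and 57.1% and 18.8% for lower, so that gene ends were near the rest. Opposite calls were made at 8 gene-end regions, 3 higher after NaPr and lower after NaBu and 5 the reverse. These were 2.83% of those higher and 4.63% of those lower after NaPr, where the shares over all regions were 1.08% and 2.37% (51 and 100 regions).

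The opposite calls included GPR142 and TRIP13. GPR142, a G protein-coupled receptor gene, had no peak untreated and ranks of 48.4, 36.4 and 56.4 after NaPr. In the NaBu experiment it ranked at 78.4, 74.5 and 74.1 untreated and at 64.7, 65.2 and 59.6 treated (-12.5 ± 2.70, adjusted p = 0.00938). The region over the end of TRIP13, an ATPase gene of the spindle checkpoint (chr5:919124-919745), ranked at 87.3, 85.3 and 88.1 untreated and 77.0, 81.2 and 79.2 after NaPr (-7.74 ± 1.63, adjusted p = 0.0232). In the NaBu experiment it ranked at 50.5, 36.3 and 39.4 untreated and 71.1, 63.1 and 75.2 treated (27.8 ± 5.33, adjusted p = 0.00602). DPYSL2 and PRDX5 went the same way as TRIP13, and fell by 9.47 and fell by 5.93 points after NaPr, with gains of 7.31 and 11.2 after NaBu. Ranked by fold enrichment, TRIP13, DPYSL2 and PRDX5 passed after neither compound. The NaPr call at GPR142 was also lost when ranked by fold enrichment, and its NaBu call in one fit over 12 libraries.

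**Figure D4:**
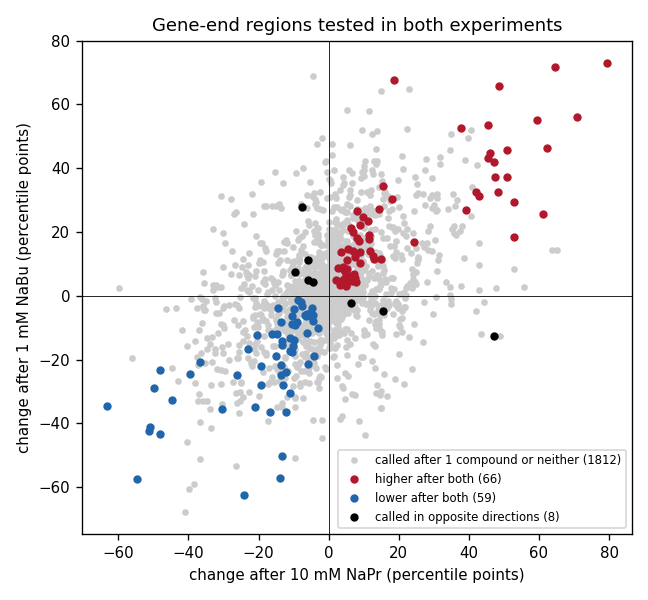
Change of each of 1945 gene-end regions tested in both experiments, in percentile points, after NaPr (horizontal) and NaBu (vertical). Red marks 66 regions called higher after both, blue 59 called lower after both, black 8 called in opposite directions, and grey the rest.

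The calls varied with the place of the summit. After NaBu, 21.2% of tested regions with a summit over 1 kb inside the gene were higher, 17.5% at 500 to 1000 bp inside and 16.0% in the last 500 bp inside, against 19.0% in the first 500 bp beyond, 22.0% at 500 to 1000 bp beyond and 23.1% further out. After NaPr, 3.09% of regions inside genes were higher and 4.56% lower, whereas beyond the end 5.52% were higher and 4.08% lower. Regions with a summit in a coding exon had the largest excess of losses, with 12.3% higher and 24.6% lower of 114 tested after NaBu and 1.83% higher and 6.71% lower of 164 after NaPr. Intergenic summits had the opposite balance, 21.0% higher and 13.8% lower after NaBu and 5.79% higher and 3.33% lower after NaPr. These shares describe regions within the same libraries and were not tested against each other. The regions called lower were richer in GC, with a median of 62.0% after NaPr and 57.0% after NaBu, against 54.2% and 53.8% for those called higher.

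**Figure D5:**
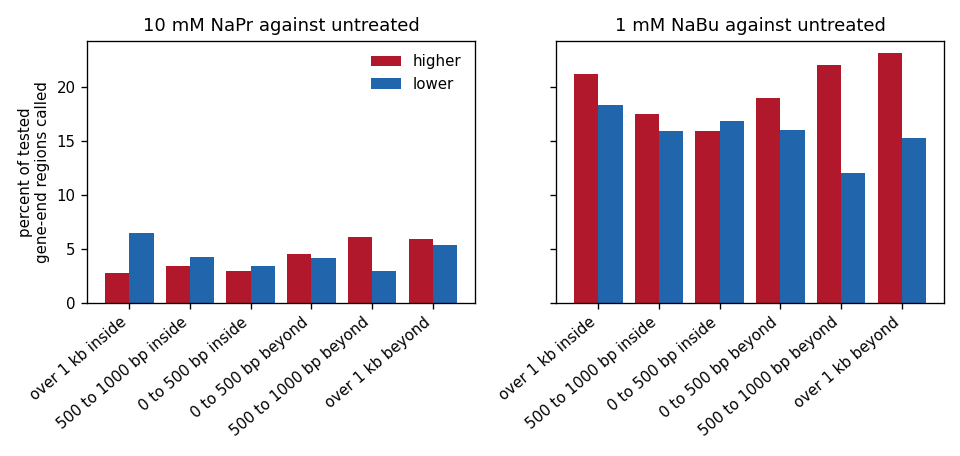
Percent of tested gene-end regions called higher (red) or lower (blue) by position of the summit relative to the gene end, after NaPr (left) and NaBu (right), 3 treated and 3 untreated libraries each. After NaBu the share higher was 21.2% over 1 kb inside the gene, 16.0% in the last 500 bp inside and 23.1% over 1 kb beyond.

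Consensus strings were sought on both strands of the 200 bp around each summit. The AP-1 string TGACTCA was present in 12.8% of gene-end windows and in 15.3% of all region windows of the same length. Among gene-end regions it was found in 22.2% of the 126 higher and 7.44% of the 121 lower after NaPr, and in 20.1% of the 518 higher and 12.3% of the 406 lower after NaBu. Over all regions the shares were 29.4% and 7.49% after NaPr and 21.9% and 12.0% after NaBu. The CTCF consensus, sought by its degenerate string, was present in 5.14% of gene-end and 3.24% of all windows. At gene ends it was in 11.9% of those higher and 2.48% of those lower after NaPr (15 and 3 regions), and in 8.49% and 2.22% after NaBu (44 and 9 regions), with 5.71% and 7.13% of those not called. Over all regions these CTCF shares were 4.84% of those higher and 1.53% of those lower after NaPr, and 5.06% and 0.914% after NaBu. The GC box GGGCGGG went the other way, with 4.76% of those higher and 19.8% of those lower after NaPr, and 6.37% and 12.8% after NaBu. Over all regions it was in 4.61% and 23% after NaPr and in 6.63% and 14.1% after NaBu. A match of letters is no evidence of binding, and these shares carry no test.

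Genes of the WNT pathway and its targets had more regions called lower than higher after NaBu. Gene-end regions were present for 7 of 20 listed genes (9 regions). After NaBu, 2 of 9 tested were higher, both at MYC, and 5 were lower, 2 of them at AXIN2 (19.8% higher and 17.2% lower over all regions), and the median change was -15.6 points beside 0.71 over all regions. After NaPr, 1 of 6 was higher and 1 lower (4.57% higher and 3.99% lower over all regions). CTNNB1, the β-catenin gene, had a region with its summit 458 bp inside its end (chr3:41259356-41259999) at 38.0, 36.9 and 42.2 untreated and without a peak in the 3 NaBu-treated libraries (-39.0 ± 5.43, adjusted p = 0.00176). CTNNB1 passed the filter only through its untreated libraries, so this p-value partly restates that selection. AXIN2, a negative regulator of the pathway and its direct target, lost in a region of its 3′ UTR (42.7, 53.7 and 59.6 untreated, 0, 22.4 and 16.6 treated, -39.0 ± 7.69, adjusted p = 0.00668) and in a region with its summit 320 bp beyond its end (83.7, 86.0 and 86.3 untreated, 68.7, 64.1 and 76.4 treated, -15.6 ± 3.00, adjusted p = 0.00611). The 3′ UTR call at AXIN2 was lost when ranked by fold enrichment and in one fit over 12 libraries. TCF7L1, a TCF/LEF factor gene, fell from 66.3, 68.1 and 66.7 to 36.6, 35.0 and 42.8 (-28.9 ± 4.16, adjusted p = 0.00201). The wide region over the end of CCND1, the cyclin D1 gene, which is also near the end of LTO1, fell by 6.45 ± 1.19 after NaBu and by 5.24 ± 1.39 after NaPr (adjusted p = 0.00506 and 0.0468), and its NaPr change turned to 0.08 (log2) on the scale of tags over background. The CCND1 region spanned 4491 bp with its highest summit 3657 bp beyond the end, so its ranks need not describe the end itself.

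Intestinal epithelial genes gave 8 regions at 6 of 26 genes. After NaBu, 0 of 7 tested were higher by limma (1 at an unadjusted p under 0.05) and 5 were lower, at ANPEP, CDX2, EPCAM, HNF4A and KRT8, with a median change of -6.35 points. Over all regions, 19.8% were higher and 17.2% lower after NaBu, with a median change of 0.71. A second ANPEP region, over the end of the gene, had 14.5 ± 5.33 points after NaBu (adjusted p = 0.0678) and was called higher as tags over background (0.54, log2). HNF4A, a nuclear receptor of gut epithelium, ranked at 84.2, 88.2 and 84.2 untreated and 75, 78.6 and 77.2 after NaBu (-8.59 ± 1.64, adjusted p = 0.00582) in a region 531 bp from its end at the nearest edge, with the summit 1563 bp beyond. CDX2, the caudal homeobox factor of intestine, fell from 87.6, 86.4 and 84.3 to 81.9, 79.8 and 77.6 (-6.35 ± 1.51, adjusted p = 0.0136). The libraries of each group did not overlap at either gene, as at 405 of the 406 gene-end regions called lower after NaBu. KRT18, a keratin of simple epithelia, was the 1 region of 6 tested that was called higher after NaPr, from 44.9, 37.7 and 45.7 to 67.9, 62.7 and 66.4 (22.9 ± 5.93, adjusted p = 0.0437), and had -13.0 ± 6.09 points after NaBu (adjusted p = 0.131), a loss that was called as tags over background (-0.49, log2). The NaPr call at KRT18 was lost when ranked by fold enrichment. Over all regions, 4.57% were higher after NaPr.

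The TGF-β and SMAD list gave 5 regions at 4 of 20 genes. SKI, a SMAD corepressor gene, rose after NaBu from 66.0, 65.4 and 64.1 to 79.7, 78.5 and 82.2 (15 ± 2.03, adjusted p = 0.00161). After NaBu 1 of 3 tested was higher, and 0 were lower by limma (1 at an unadjusted p under 0.05), where 19.8% of all regions were higher and 17.2% lower.

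Krüppel-like factor genes had 10 regions at 9 of 14 genes. After NaPr 0 of 9 passed limma (3 at an unadjusted p under 0.05), with a median change of 0.64, and after NaBu 1 of 8 was higher and 2 lower. Over all regions, 4.57% were higher and 3.99% lower after NaPr, and 19.8% and 17.2% after NaBu. KLF3 rose from 41.1, 36.8 and 35.0 to 76.4, 71.5 and 70.4 after NaBu (35.2 ± 4.01, adjusted p = 0.000882), a call that was lost in one fit over 12 libraries. KLF10, an early TGF-β response gene, lost its peak in all 3 NaBu-treated libraries from 45.8, 48.9 and 43.1 (-45.9 ± 5.29, adjusted p = 0.000905), and after NaPr it ranked at 0, 0 and 21.9 against 67.8, 39.4 and 35.5 (-40.3 ± 12.5, adjusted p = 0.0736, called lower in one fit over 12 libraries). At KLF10 only untreated libraries met the NaBu filter, so its NaBu p-value partly restates that selection. KLF16 and KLF4 passed after neither compound. The immediate early list had 4 regions at 3 of 15 genes, of which IER2 rose after NaPr from 78.9, 86.2 and 82.2 to 89.6, 90.4 and 93.4 (8.70 ± 1.87, adjusted p = 0.0246) and had -2.41 points when ranked by fold enrichment. After NaBu 0 of 3 passed limma on ranks, and 0 had an unadjusted p under 0.05. As tags over background all 3 were called after NaBu, IER2 and EGR1 higher by 0.20 and 0.24 and the second MAFK region lower, at -0.37 (log2). The 2 MAFK regions did not pass on ranks.

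Cell cycle genes had 5 regions at 5 of 28 genes. MKI67, the gene of the proliferation marker Ki-67, rose after NaBu from 68.4, 68.7 and 67.0 to 76.6, 75.7 and 79.2 (9.16 ± 2.02, adjusted p = 0.0102), a call that was lost as tags over background (0.23, log2), and had 0.85 ± 2.76 after NaPr. CCND3, a D-type cyclin gene, rose after NaPr from 83.9, 81.0 and 83.2 to 92.1, 89.9 and 91.4 (8.45 ± 1.26, adjusted p = 0.00782). With CCND1, this made 1 higher and 1 lower of 4 tested after NaPr and of 3 after NaBu. Over all regions, 4.57% were higher and 3.99% lower after NaPr, and 19.8% and 17.2% after NaBu. Adhesion and junction genes had 7 regions at 7 of 31 genes, with 0 of 5 called by limma after NaPr (1 at an unadjusted p under 0.05) and 2 of 6 higher after NaBu. TJP1, the tight junction scaffold ZO-1, went from no peak to 37.2, 46.2 and 40.8 after NaBu (41.4 ± 5.58, adjusted p = 0.00157), and claudin gene CLDN2 from no peak to 43.2, 31.3 and 17.1 (30.5 ± 7.75, adjusted p = 0.0177), a call that was lost without treated replicate 2 (adjusted p = 0.0513). Only treated libraries met the NaBu filter at TJP1 and CLDN2, so their p-values partly restate that selection. Every library of the NaPr experiment had a peak at this CLDN2 region, at 53.9, 38.8 and 46.5 untreated and 51.8, 45.7 and 40.1 treated. TJP1 had 37.3, 0 and 0 untreated and 47.0, 31.3 and 54.7 after NaPr without passing (adjusted p = 0.163). ITGB1 and CDH3 did not pass.

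Histone acylation genes had 3 regions at 3 of 26 genes, and HDAC7 was the only one called, 1 of 3 after NaPr and 1 of 2 after NaBu, both lower (3.99% and 17.2% lower over all regions). HDAC11 had changes of 15.3 ± 13.2 and 10.9 ± 5.46 points and KAT7 of 12.5 ± 12.6 after NaPr, none of which passed. Genes that cleave and terminate transcripts had 5 regions at 4 of 26 genes, with 0 of 3 called by limma after NaPr (1 at an unadjusted p under 0.05, median -20.4 points) and 0 of 2 after NaBu (0 at an unadjusted p under 0.05, median -15.8). SCAF4, which guards against premature termination, ranked at 34.5, 39.1 and 26.5 untreated and had no peak after NaPr (-33.4 ± 10.1, adjusted p = 0.0684, called lower when ranked by fold enrichment and in one fit over 12 libraries). PAPOLA, the poly(A) polymerase gene, changed by -8.90 ± 14.2 and -9.83 ± 7.61 points without passing.

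Markers of other cell types gave 4 regions at CD3E, ALB and VIM of 16 genes, and 1 was called. A region over the end of CD3E, a T cell receptor component, ranked at 78.1, 83.2 and 79.2 untreated and 71.7, 73.6 and 73.9 after NaBu (-7.1 ± 1.9, adjusted p = 0.0219), and a second region, with its summit 636 bp beyond, stood between 97.6 and 99.2 in all 12 libraries. CD3E had no promoter peak in any library. The CD3E call was lost without untreated replicate 2 (adjusted p = 0.0654) or without treated replicate 1 (adjusted p = 0.0551). Genes named in the study's own account gave 12 regions at 10 of 21 genes, with 2 higher and 1 lower of 8 tested after NaPr and 7 higher and 2 lower of 11 after NaBu, and a median change of 5.22 points after NaBu. Beside that list, 4.57% of all regions were higher and 3.99% lower after NaPr. After NaBu these shares were 19.8% and 17.2%, with a median change of 0.71. That list was chosen on these samples and is not independent evidence. Besides SAT1, MYC, MKI67 and CTNNB1 it held DHRS2, a dehydrogenase gene, which went from no peak to 25.1, 19.8 and 35.2 after NaBu (26.7 ± 6.48, adjusted p = 0.0149). At DHRS2 only treated libraries met the NaBu filter, so this p-value partly restates that selection. After NaPr DHRS2 ranked at 67.6, 60.2 and 64.5 against 37.0, 27.2 and 54.8 untreated (24.4 ± 8.07, adjusted p = 0.0877). Its summit held 7, 11 and 20 tags untreated and 50, 48 and 91 after NaPr, and over the background of each library this was called higher (2.74, log2). CXXC5, a zinc finger gene of WNT and retinoid signalling, fell from 98.5, 98.3 and 99.2 to 91.5, 92.3 and 92.8 after NaBu (-6.42 ± 0.54, adjusted p = 0.000411) and by 6.48 ± 1.03 after NaPr (adjusted p = 0.00986).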

How the data were processed

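ATAC-seq peak lists of 12 SW480 libraries were analysed (3 per group), and the mouse CT26 libraries were not used here. For each library the authors deposited MACS2 peaks with a fold ratio of the summit over its local background and the −log10 p and −log10 q of the peak. The submitters' processing notes name bcl2fastq 2.17.1, cutadapt 1.9.1, Bowtie2 2.3.1 and MACS2 2.1.0, with hg38, and peaks were called on each library separately. The numbering of every list ends at 300000 summits, so a missing peak means only that none passed that limit. The authors' own differential test works on reads and was not used.

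Intervals were merged at an overlap of 1 bp, and genes came from GENCODE 44. Percentile ranks of the highest −log10 p were fitted with limma 3.58.1 (R 4.3.3, trend, 3 against 3 libraries, two-sided), with Benjamini-Hochberg adjustment over all regions tested in the experiment. Every adjusted p comes from that fit. Other steps used Python 3.11.15, numpy 2.4.6, scipy 1.17.1 and pandas 2.3.3. Single values per library were compared by exact permutation tests. Tags at a summit were recovered from the deposited fold and −log10 p (100% of 19996 simulated summits), and the limma step was also tested on simulated data. No more than 0.796% of intervals were identical between any pair of libraries, and replicate numbers did not pair the libraries.

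The gene-end rule and the gene lists were chosen with earlier results of these data known. Named regions are the 8 largest gains and 8 largest losses called after each compound, the 6 called in the same direction after both with the largest smaller change, up to 4 called in opposite directions and up to 4 of each gene list. A few items that the rule selects are not reported here. SLC48A1, DBP, LTO1 and GAS2L2 are named only because they end beside a named region. Motif strings were sought in 200 bp windows. Alternatives covered the ranking, scale, peak limit, region filter, fit, member rule and each library left out.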

Additional observations from a re-analysis of the deposited data

How the results depend on the processing

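The NaPr count (247 called, 126 higher and 121 lower) depended on the processing. It was 55 (31 higher, 24 lower) when ranked by fold enrichment, or 1.1% and 0.85%, beside 1.74% and 1.05% of all regions. It was 121 (60 and 61) without a filter on libraries, or 1.98% and 2.02%, beside 1.35% and 1.25% of all regions. Within 500 bp of the end it was 159 (80 and 79). With recovered tags over background 26 were lower, and over the library median 468 were called, 301 of them lower. Without the variance trend 81 were higher (2.87%, all regions 3.43%), and in one fit over 12 libraries 193 were lower (5.52%, all regions 3.76%). Leaving out 1 library gave 0 to 64 calls (0 to 40 higher, 0 to 24 lower), and the 28 named NaPr calls then had adjusted p of 0.0532 to 0.189 without a treated library. The cause was not tested.

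Replicate numbers gave no pairing (correlations of deviations 0.0071 to 0.0462, and not every sample correlated best with its own number). With the replicate block limma called 0 regions after NaPr (0 higher, 0 lower, with 695 at an unadjusted p under 0.05) and 895 after NaBu. The paired shares of intervals kept differences of -0.121 and -0.0497 percentage points (exact p = 0.25 each, the smallest that 3 pairs allow).

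After NaBu (924 called, 518 higher and 406 lower) 295 were higher when ranked by fold enrichment, and 335 were higher within 500 bp. Among the top 50000 intervals 500 (275 and 225) were called, or 23.6% and 19.3%, beside 22% and 20.7% of all regions. The 125 regions called in the same direction after both compounds became 21 by fold enrichment, 218 over the library median, 72 without a filter, 0 with the replicate block and 46 without the trend. These alternatives for both compounds, and the paired shares, were chosen after seeing the data. Gained or lost regions after NaPr numbered 66 (30 gained, 36 lost) among the top 50000 and 84 (47 and 37) within 500 bp. After NaBu, 71 were gained among the top 50000, and 119 (74 and 45) were gained or lost within 500 bp. The NaBu share of intervals turned from -0.0497 to 0.0255 among the top 50000. By gene, the NaPr change turned at IER2 to -2.41 by fold enrichment, and as tags over background at CCND1 to 0.0808 (log2). The cause was not tested. By fold enrichment, NaPr calls were lost at SPHK2, KCNH2, RASL10B, TMEM258, HDAC7, FNBP1, RASA4, TP53INP2, NOS3 and PDLIM7. They were also lost at MZF1, GPR142, TRIP13, DPYSL2, PRDX5, KRT18 and CCND1. As tags over background, NaPr calls were lost at ADRA1B, TRIP13, DPYSL2, PRDX5 and CCND3. In one fit over 12 libraries they were lost at TMEM258, SYT3, ADRA1B, TRIP13, PRDX5 and CCND1. Calls after NaBu at TRIP13, DPYSL2, PRDX5 and AXIN2 were lost by fold enrichment. In one fit over 12 libraries those at GPR142, KLF3, AXIN2, HNF4A, ANPEP and CD3E were lost, and as tags over background that at MKI67.

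The weakest listed peak differed between libraries, and 3 libraries per group cannot reach an exact p below 0.1 for a single value.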
